A study of Homo sapiens with 42 samples.

Results

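Integrator is a multisubunit complex that travels with RNA polymerase II and cuts the new transcript. It forms the 3′ ends of small nuclear RNAs (snRNAs) and, at protein-coding genes, can end transcription near the start site. Its nuclease INTS11 and the partner of that nuclease, INTS9, are relatives of CPSF73 and CPSF100, the corresponding pair of the machinery that cuts mRNAs before their poly(A) tails are added. The genes described here are 10 of the genes that code for Integrator subunits: INTS1, INTS2, INTS3, INTS4, INTS6, INTS7, INTS8, INTS9, INTS10 and INTS11. They were taken by symbol from the gene identifiers of the count tables, and these 10 were among 58243 gene identifiers in each table. All 10 passed the filter on low counts in both kinds of RNA.

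The cells were K562, an established line from a patient with chronic myeloid leukemia, so that every library comes from 1 cell line. The untreated group is CTRL, and the treated groups received imatinib (IM) at 1 μM, which inhibits the BCR-ABL1 kinase, 5 μM JTE-607 (JTE), an inhibitor of CPSF73, or 110 mM KCl, a hyperosmotic stress. The mRNA groups were CTRL, IM 1h, IM 6h, IM 18h, JTE 1h, JTE 6h, JTE 18h, KCl 1h and KCl 3h, and poly(A) RNA was sequenced. The nuclear groups were CTRL, IM 1h, IM 18h, JTE 1h and KCl 1h, and nuclear RNA was depleted of ribosomal RNA before sequencing. Each of the 14 groups had 3 biological replicates.

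Total counts per library ran from 16439848 to 62953314 for mRNA, where KCl 1h replicates 2 and 3 were deeper than all others (the rest reached at most 22505595), and from 16175394 to 25103205 for nuclear RNA. The members held between 465 and 9339 counts in an mRNA library and between 672 and 5111 in a nuclear library, so none of them was limited by depth. Levels are given as CPM, the counts scaled to the library total, as mean ± SD over 3 libraries, or, where genes are compared with each other, as RPKM, the CPM per kilobase of exon. Of the 10 markers of K562 cells, all were expressed in every library. Of 10 markers of other cell types, CD3E, MS4A1, ALB and ACTA2 reached at most 0.528 CPM in any library, whereas EPCAM and KRT8 were expressed throughout. PECAM1 also was present in every library, from 3.42 to 19.2 CPM in mRNA and from 6.28 to 14.4 CPM in nuclear RNA. MALAT1, an RNA retained in the nucleus, ran from 1936 to 3344 CPM in mRNA and from 10278 to 17014 CPM in nuclear libraries. In these bulk samples, fewer cells of a state and less RNA per cell cannot be told apart.

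In untreated cells the members differed widely in level per length. In mRNA CTRL, INTS7, a subunit of the structural core, was highest with 19.1 ± 1.30 RPKM and INTS10, a subunit of the arm that also holds INTS13 and INTS14, followed with 18.4 ± 1.11 RPKM. The libraries of these 2 genes overlapped. Next came INTS8 with 12.9 RPKM, the scaffold INTS1 with 12.8 RPKM, INTS11 with 11.98 RPKM and INTS9 with 10.6 RPKM, each overlapping the next in its libraries. INTS2 with 7.66 RPKM and INTS4, the third subunit of the cleavage module, with 7.44 RPKM overlapped each other and lay below those 6 genes. INTS3, with 3.18 ± 0.23 RPKM, and INTS6, with 1.95 ± 0.18 RPKM, were lowest and were separated from all other members and from each other.

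The order was different in nuclear RNA. INTS1 was highest there with 24.2 ± 2.13 RPKM, and all 3 of its CTRL libraries lay above those of every other member. INTS9, INTS10, INTS11 and INTS7 followed between 17.4 and 16.03 RPKM with overlapping neighbours, and INTS6 was again lowest with 1.79 ± 0.15 RPKM. In CPM, each scaled to its own kind of library, the nuclear level was 1.89 times the mRNA level for INTS1, 1.69 times for INTS3, 1.64 times for INTS9 and 1.41 times for INTS11. It was below the mRNA level for INTS7, with a ratio of 0.84, for INTS8 with 0.88, for INTS6 with 0.92 and for INTS10 with 0.95. INTS6 has an exon model of 25509 bases, which lowers its level per length. By CPM, without length, INTS6 ranked 8 of 10 in mRNA CTRL and 10 of 10 in nuclear CTRL.

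**Figure D1:**
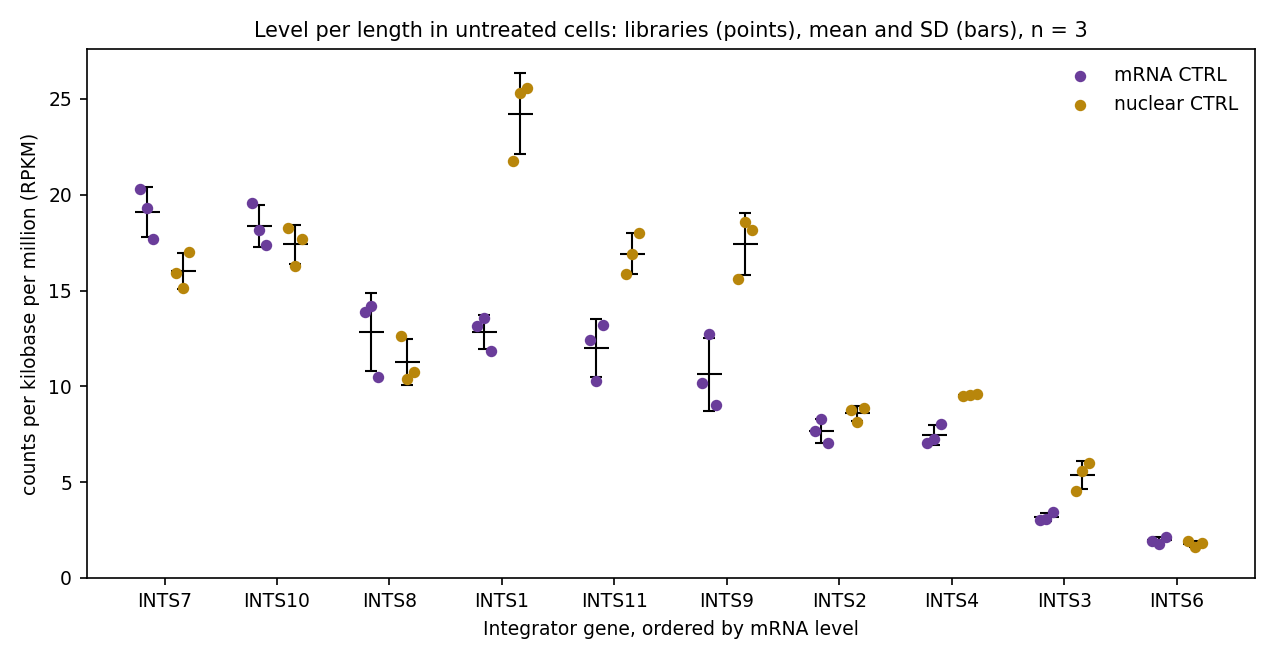
Level per length of each member in untreated cells, in RPKM, for 3 mRNA CTRL and 3 nuclear CTRL libraries (points) with mean and SD (bars). INTS7 and INTS10 were highest in mRNA, INTS1 was highest in nuclear RNA, and INTS6 was lowest in both.

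Treated groups were compared with CTRL of the same RNA kind by edgeR's quasi-likelihood test. Calls required that the p, adjusted by Benjamini-Hochberg over all genes tested, fell under 0.05 and that the log2 fold change exceeded 0.6 upward or downward. Over 12 comparisons with CTRL, the 10 members gave 120 tests, of which 6 were called, 1 higher and 5 lower. Of all genes, from 0.0166% (mRNA IM 1h) to 32.6% (nuclear IM 18h) were called in such a comparison. These 6 calls belonged to 3 genes, INTS6, INTS9 and INTS10, and the remaining 7 members were called in none of the 12 comparisons. By adjusted p alone, without the fold change threshold, 21 tests passed, spread over 9 members. By that rule 43.8% of all genes passed at mRNA IM 18h and 45.6% at nuclear IM 18h. INTS8, a subunit that holds the protein phosphatase PP2A to the complex, passed in none of the 12 comparisons. Its log2 fold changes ran from 0.01 to 0.26.

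**Figure D2:**
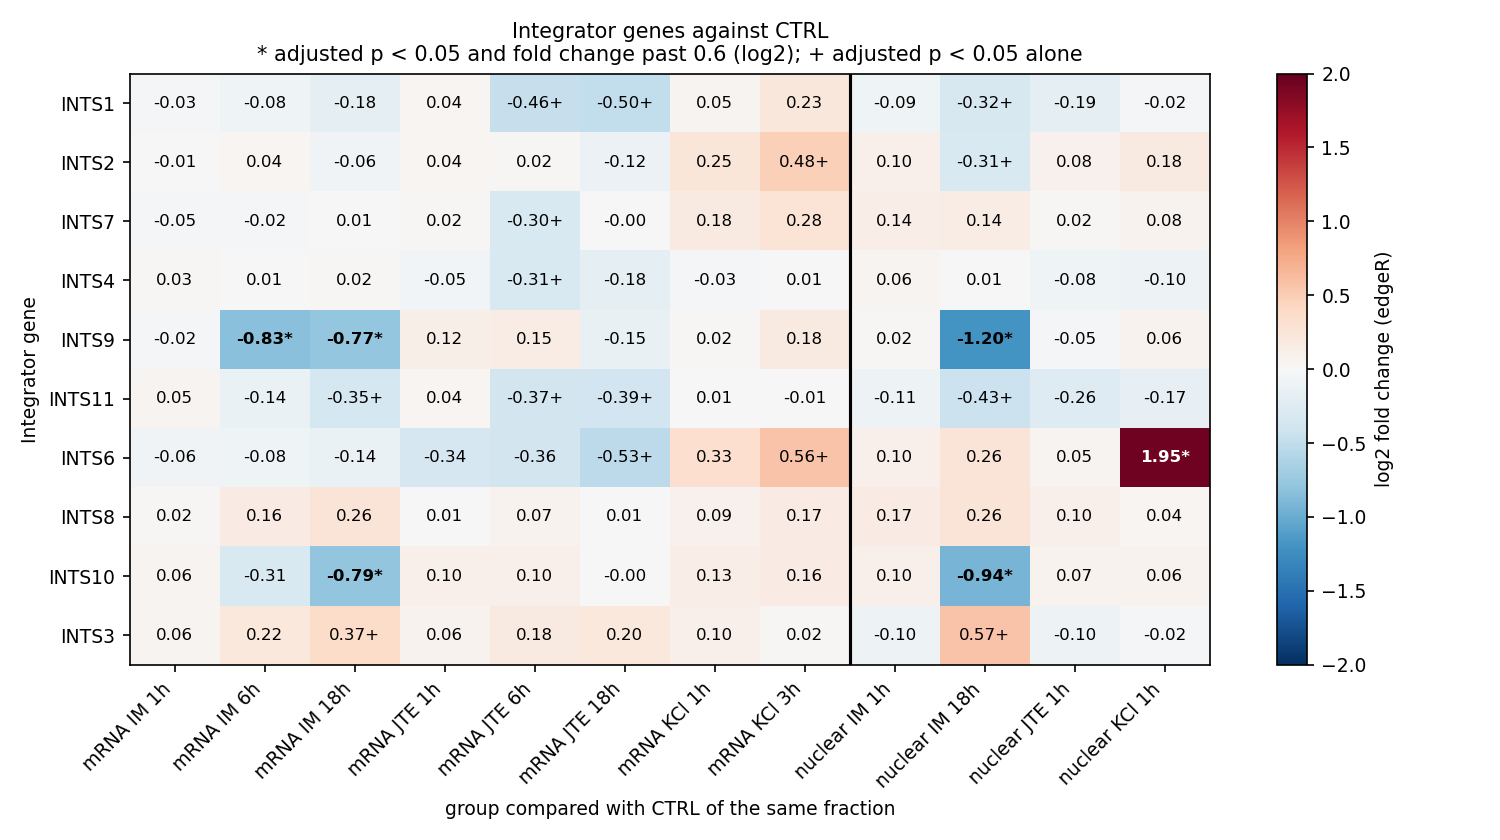
Log2 fold change (edgeR) of each member (lines) in each treated group against CTRL of the same RNA kind (columns, mRNA to the left of the line and nuclear RNA to the right). The calls, marked with an asterisk, are INTS9 and INTS10 under imatinib and INTS6 in nuclear RNA under KCl.

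Imatinib lowered the mRNA of 2 members, both after hours and not after 1 h. At IM 1h no member was called in mRNA, where 0.0166% of all genes were called, or in nuclear RNA, where 0.0456% were called, and 0 members had an unadjusted p under 0.05 in edgeR or a call by DESeq2 in either. At IM 6h, INTS9 alone was called, against 9.94% of all genes. At IM 18h, INTS9 and INTS10 were called in mRNA, or 2 of 10 members against 30.5% of all genes, and again in nuclear RNA, against 32.6% of all genes. The share of members called was therefore below or near that of all genes at both times. The median log2 fold change of the members was -0.10 in mRNA and -0.15 in nuclear RNA at IM 18h, beside 0.04 and 0.00 over all genes tested.

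INTS9 (ENSG00000104299, hg38 chromosome 8, 28767661 to 28890242, minus strand) held 49.8, 62.4 and 44.1 CPM in the mRNA CTRL libraries. It held 37.3, 27.7 and 26.5 CPM at IM 6h and 29.5, 28.5 and 35.7 CPM at IM 18h. All 6 of these treated libraries lay below the lowest CTRL library, and the IM 1h libraries, between 43.7 and 60.2 CPM, overlapped the CTRL range. The log2 fold change was -0.83 at IM 6h (SE 0.16, edgeR adjusted p 0.00092) and -0.77 at IM 18h (SE 0.16, edgeR adjusted p 0.00045). Between the 2 times INTS9 differed by 0.06 (95% interval -0.27 to 0.39), which did not pass the test. In nuclear RNA, INTS9 held 76.5, 91.0 and 89.0 CPM in CTRL and 32.5, 43.0 and 41.5 CPM at IM 18h. Here too the groups were far apart, and the nuclear fold change of -1.20 (SE 0.12, edgeR adjusted p 8.0e-08) was the largest fall of any member. Nuclear and mRNA responses of INTS9 at IM 18h differed by -0.37 (95% interval -0.80 to 0.05), which did not pass the test.

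INTS10 (ENSG00000104613, chromosome 8, 19817140 to 19852083, plus strand) moved later. Its mRNA CTRL libraries held 134.4, 124.7 and 119.4 CPM, those of IM 6h held 110.2, 120.8 and 87.7 CPM, and those of IM 18h held 62.9, 74.4 and 86.6 CPM. The IM 6h libraries overlapped CTRL, and the IM 18h libraries lay below both. The fold change was -0.31 at IM 6h, which did not pass (edgeR adjusted p 0.12), and -0.79 at IM 18h (SE 0.13, edgeR adjusted p 4.9e-05). From IM 6h to IM 18h, INTS10 changed by -0.49 (SE 0.13, edgeR adjusted p 0.026), which passed the test on p, as did 8.34% of all genes, but was short of the fold threshold that 4.41% passed. Leaving out IM 6h replicate 3 took this value to -0.61 and leaving out IM 18h replicate 3 to -0.61, both past the threshold. In nuclear RNA, INTS10 held 125.3, 111.8 and 121.6 CPM in CTRL and 64.1, 69.6 and 62.4 CPM at IM 18h, with no overlap. The nuclear fold change was -0.94 (SE 0.10, edgeR adjusted p 1.7e-07).

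INTS3 (ENSG00000143624, chromosome 1, 153728067 to 153774808, plus strand), which also belongs to the SOSS complex that binds single-stranded DNA at breaks, went the other way at IM 18h without being called. Its mRNA libraries held 31.8, 31.8 and 36.0 CPM in CTRL and 43.1, 46.8 and 42.2 CPM at IM 18h, a log2 fold change of 0.37 (SE 0.13, edgeR adjusted p 0.020). Its nuclear libraries held 47.5, 58.1 and 62.4 CPM in CTRL and 82.7, 85.6 and 93.4 CPM at IM 18h, a log2 fold change of 0.57 (SE 0.11, edgeR adjusted p 0.00035). Treated and CTRL libraries did not overlap in either kind of RNA. The nuclear value lay close to the fold threshold and passed it under 5 alternatives, among them upper quartile normalization, which gave 0.69. Of the exon bases of INTS3, 19.5% are shared with other annotated genes. SLC27A3, on the same strand, held 2.98 ± 0.44 CPM in nuclear CTRL and 4.07 ± 0.37 CPM at nuclear IM 18h.

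Of the other members at IM 18h, INTS11 (chromosome 1, 1311585 to 1324691) passed by adjusted p alone with -0.35 in mRNA and -0.43 in nuclear RNA, the scaffold genes INTS1 and INTS2 passed only in nuclear RNA with -0.32 and -0.31, and INTS4, INTS6, INTS7 and INTS8 passed in neither. Together with INTS3, INTS9 and INTS10, this made 4 of 10 members in mRNA and 6 of 10 in nuclear RNA, against 43.8% and 45.6% of all genes by adjusted p alone. INTS11 held 102, 84.5 and 109 CPM in mRNA CTRL and 74.5, 84.8 and 78.3 CPM at IM 18h, so that its groups met at their edges. PUSL1, which lies on the other strand at INTS11 and shares 93 exon bases with it, was called lower at IM 18h in mRNA, from 23.0 to 11.5 CPM. Its part in the INTS11 value was not tested. INTS8 shares 20.7% of its exon bases with CCNE2 on the opposite strand, and INTS4 has the pseudogenes INTS4P1 and INTS4P2, so that the counts of both are less certain.

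The K562 markers moved with imatinib over the same hours. At IM 6h 2 of 10 were called higher, beside 9.94% of all genes called in either direction. At IM 18h it was 7 of 10 in mRNA, beside 30.5%, and 6 of 10 in nuclear RNA, beside 32.6%, with none lower at either time. Their summed level ran from 4726 to 5948 CPM in mRNA CTRL and from 11908 to 16292 CPM at IM 18h, and from 5400 to 7247 CPM in nuclear CTRL against 12354 to 14687 CPM at IM 18h. At IM 18h, KRT8 and PECAM1 were called lower in both kinds of RNA. Also among the markers of other cell types, COL1A1, with group means under 3 CPM, was called higher in both. The summed level of all 10 ran from 271 to 281 CPM in mRNA CTRL and from 177 to 200 CPM in mRNA IM 18h. The part of these shifts in the INTS9 and INTS10 values was not tested.

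**Figure D3:**
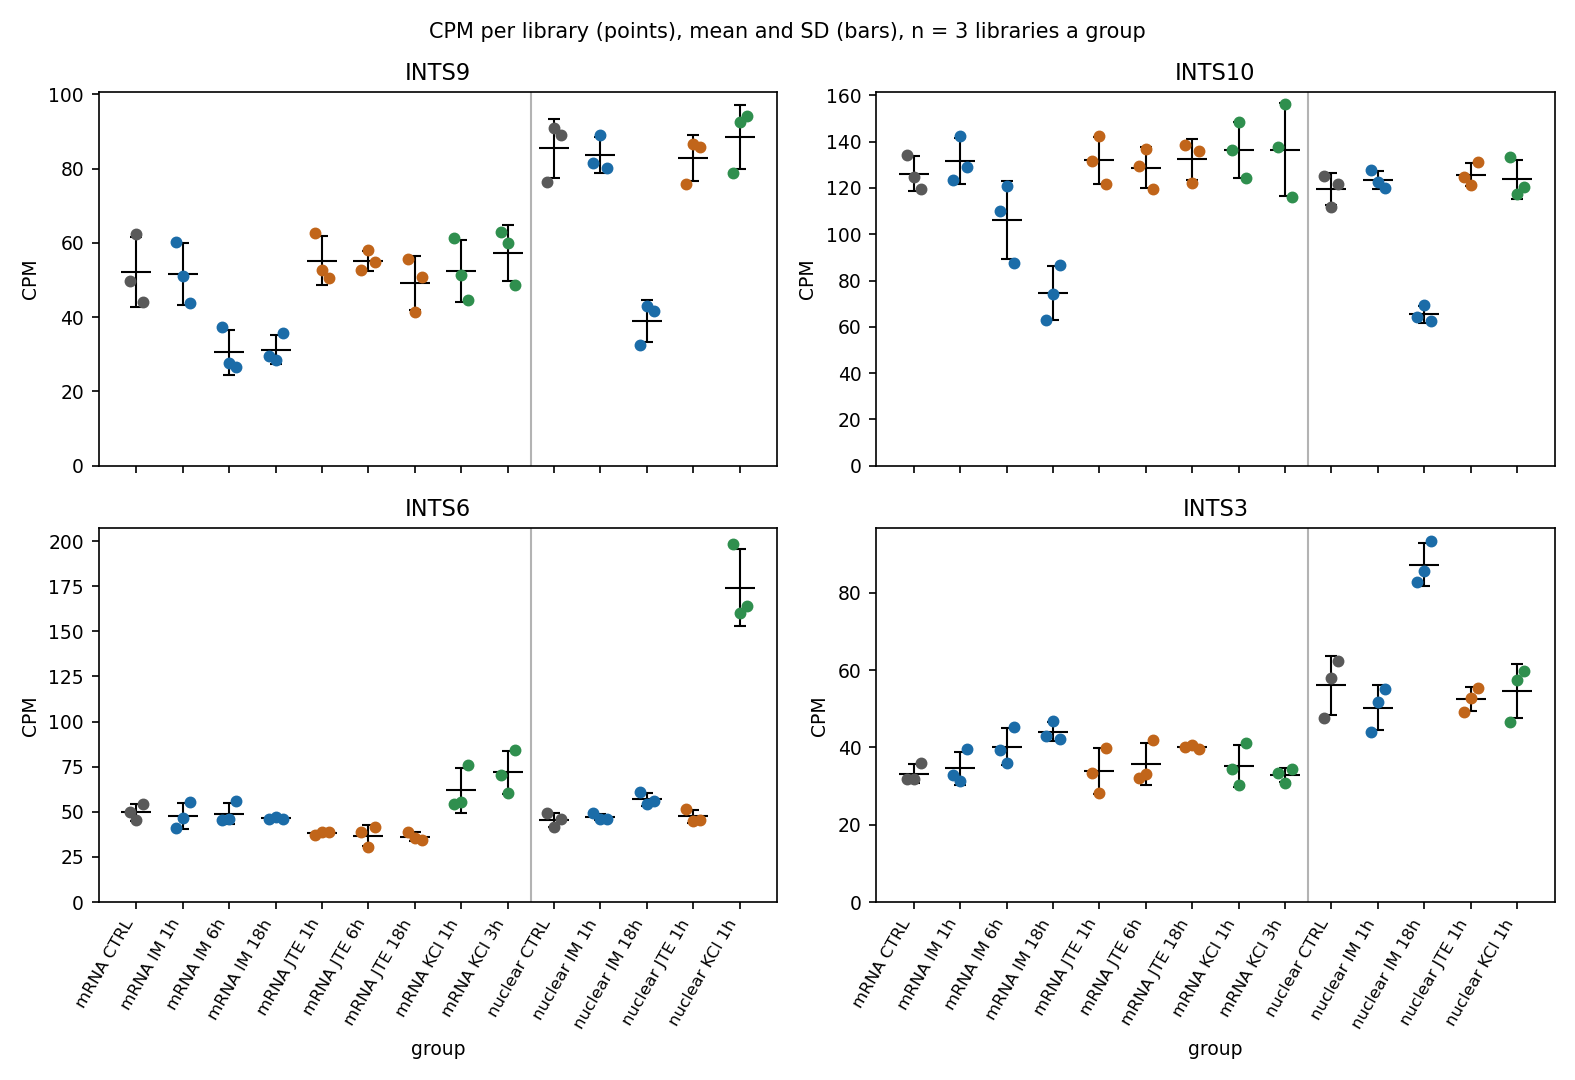
CPM in every library (points) of INTS9, INTS10, INTS6 and INTS3 over the 9 mRNA and 5 nuclear groups, with mean and SD over 3 libraries (bars). INTS9 was low in the imatinib groups after 6 and 18 h, and INTS10 was low after 18 h. INTS3 was high at IM 18h, and INTS6 reached 160.4 to 198.6 CPM in nuclear KCl 1h.

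JTE-607, which blocks the nuclease related to INTS11, gave no called member. At JTE 1h no member was called in mRNA, where 0.851% of all genes were called, or in nuclear RNA, where 8.52% were called. DESeq2 also called 0 members in all of these JTE-607 comparisons, and by edgeR's unadjusted p under 0.05 there were 1 at JTE 1h in each kind of RNA, 5 at JTE 6h and 4 at JTE 18h. At JTE 6h, with 13.2% of all genes called, 4 members passed by adjusted p alone and all 4 were lower: INTS1 by -0.46, INTS11 by -0.37, INTS4 by -0.31 and INTS7 by -0.30 on the log2 scale. Of all genes, 9.16% were lower by adjusted p alone in that comparison. At JTE 18h, with 5.39% of all genes called, INTS6 (-0.53), INTS1 (-0.50) and INTS11 (-0.39) passed by adjusted p alone, against 4.65% of all genes in that direction. Several of these passes depended on the settings. In a fit of only JTE 6h and CTRL none of the 4 passed, with edgeR adjusted p from 0.057 for INTS1 to 0.18 for INTS7. Without JTE 6h replicate 3, INTS4, INTS7 and INTS11 did not pass. At JTE 18h, INTS1 passed in every alternative, whereas INTS6 did not in 3 of them and INTS11 in 7.

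INTS1 (ENSG00000164880, chromosome 7, 1470277 to 1504367) shows the size of these shifts. Its CTRL libraries held 119, 123 and 107 CPM, its JTE 1h libraries 121, 117 and 110 CPM, its JTE 6h libraries 74.1, 93.0 and 74.0 CPM, and its JTE 18h libraries 81.0, 94.9 and 83.6 CPM. The libraries at 6 and 18 h lay below all those of CTRL and JTE 1h, with an edgeR adjusted p of 0.0035 at 6 h and 0.0048 at 18 h. From JTE 1h to JTE 6h, INTS1 changed by -0.50, INTS11 by -0.41, INTS7 by -0.33 and INTS4 by -0.26, each passing by adjusted p alone, or 4 of 10 members against 13.0% of all genes, with 9.23% called. INTS7 did not stay low. It held 76.7, 88.9 and 69.1 CPM at JTE 6h and 106, 108 and 106 CPM at JTE 18h, a difference of 0.30 (SE 0.10, edgeR adjusted p 0.036), back in the range of its CTRL libraries, 94.1 to 108 CPM. It was the only member to pass by adjusted p alone between these times, against 21.8% of all genes, of which 13.4% were called. By CPM, the summed level of the 10 members was lowest of all mRNA groups at JTE 6h. It was 676 ± 30.8 CPM, against 779 ± 29.4 CPM in CTRL and 710 ± 34.9 CPM at IM 18h. CPM leaves out the scaling factors of the tests, 0.94 to 0.96 at JTE 6h and 1.01 to 1.03 at IM 18h. The lowest rank of JTE 6h holds for CPM only, because those factors raise its level and lower that of IM 18h. The share of counts from mitochondrial genes was 11.2 to 13.2% at JTE 6h and 10.04 to 10.9% in CTRL, and its part in the summed level was not tested.

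At matched times, imatinib and JTE-607 differed at INTS9 and INTS10. At 6 h, INTS9 was lower under imatinib than under JTE-607 by a log2 difference of -0.99 (SE 0.16, edgeR adjusted p 4.6e-05), and 1 of 10 members was called against 23.8% of all genes. At 18 h, INTS10 differed by -0.79 (SE 0.13, edgeR adjusted p 5.3e-05) and INTS9 by -0.62 (SE 0.16, edgeR adjusted p 0.0032), or 2 of 10 members against 30.3% of all genes. The INTS9 value lay at the threshold: it was -0.59 without IM 18h replicate 1, -0.57 without IM 18h replicate 2, -0.56 without JTE 18h replicate 1 and -0.58 with upper quartile normalization. INTS9 libraries under JTE-607, between 41.3 and 62.6 CPM over the 3 times, overlapped CTRL throughout, as did those of INTS10, between 119.7 and 142.3 CPM.

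KCl raised nuclear INTS6. INTS6 (ENSG00000102786, chromosome 13, 51354077 to 51454264, minus strand) codes for a subunit of the phosphatase module. Its nuclear CTRL libraries held 49.2, 41.5 and 45.9 CPM and its nuclear KCl 1h libraries 198.6, 160.4 and 163.8 CPM. The lowest KCl library lay far above the highest CTRL library. The log2 fold change was 1.95 (SE 0.11, 95% interval 1.72 to 2.19, edgeR adjusted p 2.6e-10). INTS6 was the only member called there, 1 of 10, where 23.8% of all genes were called and 15.3% were called higher. The other 9 members had log2 fold changes from -0.17 to 0.18. In RPKM, INTS6 rose from 1.79 to 6.83 ± 0.83, which moved it above INTS3 in the order of the members.

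The mRNA of INTS6 moved far less. It held 49.7, 45.2 and 54.3 CPM in CTRL, 54.1, 55.5 and 76.1 CPM at KCl 1h and 70.6, 60.5 and 84.4 CPM at KCl 3h. The KCl 1h libraries overlapped CTRL at their edge and the KCl 3h libraries lay above it. The log2 fold change was 0.33 at KCl 1h (SE 0.14, edgeR adjusted p 0.21) and 0.56 at KCl 3h (SE 0.14, edgeR adjusted p 0.0052), which passed by adjusted p alone, and the change from 1 to 3 h was 0.23 (95% interval -0.05 to 0.52), with no member called against 3.29% of all genes. At KCl 3h the value passed the fold threshold without CTRL replicate 3 (0.61) and without KCl 3h replicate 2 (0.65). The nuclear response at 1 h exceeded the mRNA response by 1.52 (SE 0.21, 95% interval 1.08 to 1.96, edgeR adjusted p 0.0020), an interaction called for 1 of 10 members and for 0.668% of all genes. For the other 9 members and for the other treatments measured in both kinds of RNA, no difference between responses passed the test. Of all genes, 0.0%, 0.0901% and 0.0605% were called for that difference at IM 1h, IM 18h and JTE 1h.

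**Figure D4:**
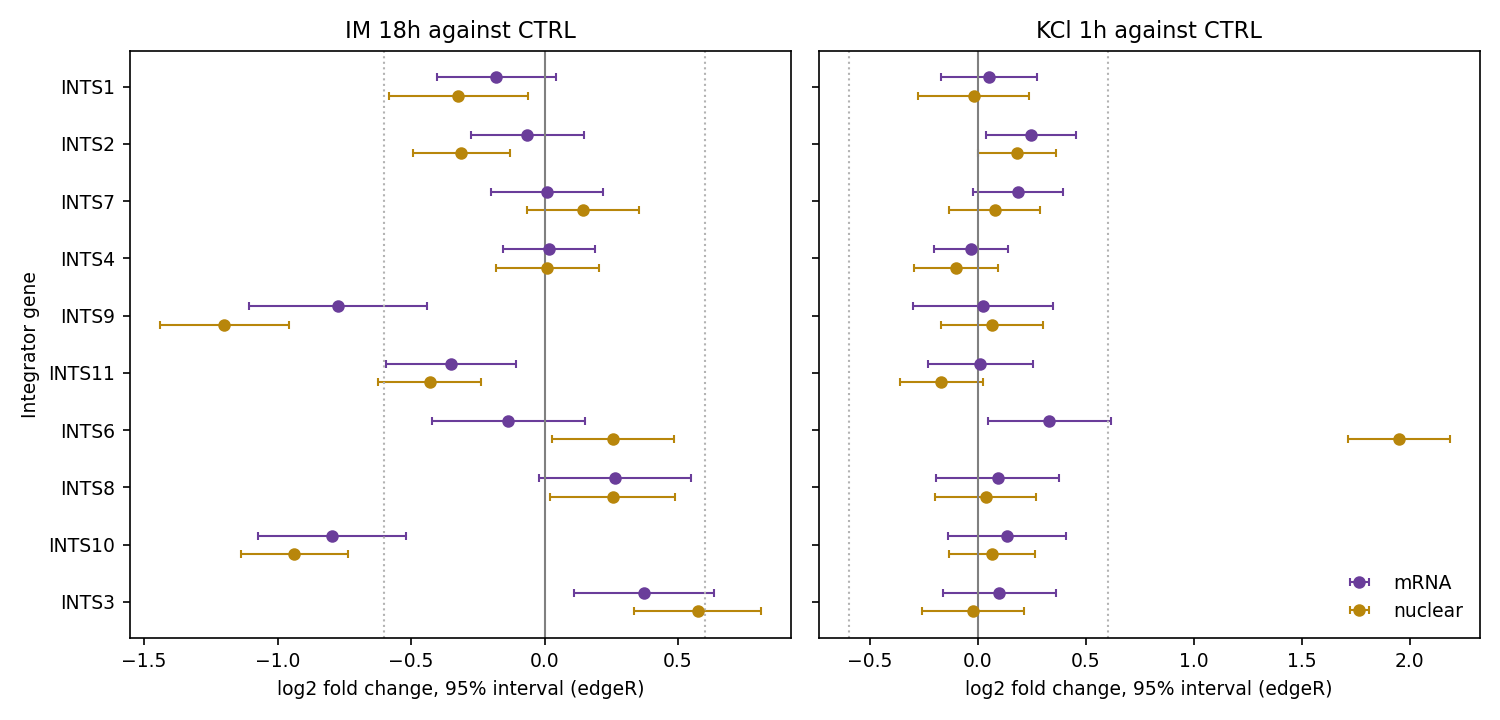
Log2 fold change against CTRL with its 95% interval (edgeR) for each member in mRNA and in nuclear RNA, at IM 18h (left) and KCl 1h (right), with dotted lines at 0.6 in either direction. At IM 18h INTS9 and INTS10 were called lower in both kinds of RNA, and at KCl 1h nuclear INTS6 stood at 1.95 beside 0.33 in mRNA.

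Against JTE 1h instead of CTRL, INTS6 at KCl 1h was higher by 1.90 in nuclear RNA (SE 0.11, edgeR adjusted p 6.1e-10), where 15.9% of all genes were called. It was higher by 0.67 in mRNA (SE 0.14, edgeR adjusted p 0.0033), where 4.29% were called. The mRNA call was lost without KCl 1h replicate 3 (0.51) and in a fit of only these 2 groups (0.66, edgeR adjusted p 0.066). INTS6 mRNA under JTE-607 lay between 30.2 and 41.4 CPM at all 3 times, below each CTRL library, though only JTE 18h passed by adjusted p.

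Other annotated genes lie across INTS6 on the opposite strand, and strand was not used in counting. INTS6-AS1 starts 309 bases from the start of INTS6 and runs away from it, SERPINE3 lies over its 3′ end, and RPS4XP16 is a processed pseudogene. Together they share 1032 exon bases with INTS6, or 4.05% of its exons, and read pairs over shared exons were left out of both genes. SERPINE3 held 2, 2 and 4 counts in nuclear CTRL and 124, 111 and 196 counts in nuclear KCl 1h, or 7.03 CPM on average. INTS6-AS1 held 23, 10 and 17 counts in CTRL and 22, 39 and 34 counts in KCl 1h. Both were small beside the INTS6 level, and how many INTS6 counts came from the antisense strand was not tested. The window from 250 bases before to 50 bases after the RefSeq start of INTS6 is shown because INTS6 was the member that KCl raised. It lies at chr13:51452987-51453286 (GRCh38.p14, minus strand), and capitals mark GC boxes, the letters GGGCGG read on either strand and merged where matches overlap.
INTS6: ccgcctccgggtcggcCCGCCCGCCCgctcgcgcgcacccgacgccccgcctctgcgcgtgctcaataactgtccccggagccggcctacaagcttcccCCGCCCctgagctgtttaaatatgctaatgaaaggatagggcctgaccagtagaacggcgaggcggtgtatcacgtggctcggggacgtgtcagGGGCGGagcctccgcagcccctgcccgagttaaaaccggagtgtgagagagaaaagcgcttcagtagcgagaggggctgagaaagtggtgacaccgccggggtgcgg
The window holds 4 such matches. A GC box was found in 5 of the 7 members with a promoter sequence in the RefSeq table and in 45.0% of all 35116 promoters. An E-box (CACGTG) was found in 1 of 7 members, INTS6, and in 7.26% of all promoters. TGGAAA, the core of the element bound by the osmotic stress factor NFAT5, was found in 1 of 7 members and not in the INTS6 window, and in 20.7% of all promoters. A match is a run of letters and not a measured site.

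Beyond INTS6, KCl gave no called member in mRNA, against 5.45% of all genes at 1 h and 11.9% at 3 h. DESeq2 called 0 members there too, and 2 members at 1 h and 4 at 3 h had an unadjusted p under 0.05 in edgeR. INTS2, a scaffold gene on chromosome 17 (61865367 to 61928016), passed by adjusted p alone at KCl 3h. It held 54.9, 59.0 and 50.2 CPM in CTRL and 69.5, 75.5 and 78.0 CPM at KCl 3h, groups without overlap, with a log2 fold change of 0.48 (SE 0.10, edgeR adjusted p 0.0015). With INTS6 this made 2 of 10 members, against 15.8% of all genes by adjusted p alone. The summed level of the 10 members was the highest of the mRNA groups at KCl 3h, with 875 ± 15.3 CPM. The mitochondrial share was lowest in the same group, 5.83 to 7.21% beside 10.04 to 10.9% in CTRL, and its part in this level was not tested. The median log2 fold change of the members there was 0.17, beside 0.02 over all genes tested.

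Over the 9 mRNA groups the members did not share 1 profile. Of 45 pairs of members, 32 had a positive and 13 a negative Pearson correlation of their group means of log2(CPM + 0.5), with a median r of 0.22. INTS7, INTS1 and INTS6 lay closest to the mean scaled profile of the family, with r of 0.91, 0.90 and 0.89, whereas INTS10 (0.12), INTS9 (0.00) and INTS3 (-0.26) did not follow it. Each member is itself part of that mean, which raises its r, so that these values are not comparable with those of other genes. Among 8715 other genes with a mean of at least 10 CPM, the 3 closest to the mean profile were NAA35, with r of 0.967, NCOA6 with 0.965 and INPP5E with 0.960. These values rest on 1 set of 27 libraries and are descriptions without a test.

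Of 6 other Integrator subunits, INTS15, a more recently assigned subunit, was called lower at IM 18h in mRNA, by -0.89 from 23.8 ± 7.21 to 13.2 ± 2.14 CPM, and in nuclear RNA by -0.83. INTS6L, the paralog of INTS6, was called higher in nuclear RNA at IM 18h, by 0.67 from 52.9 ± 3.05 to 87.9 ± 12.5 CPM. At nuclear KCl 1h, where INTS6 stood at 1.95, INTS6L had a fold change of 0.29 that did not pass (edgeR adjusted p 0.070). INTS5 was called lower at KCl 3h in mRNA, by -0.70. No other comparison with CTRL called any of these 6 genes. They thus gave 1 call at IM 18h in mRNA beside 30.5% of all genes, 2 in nuclear RNA beside 32.6% and 1 at KCl 3h beside 11.9%.

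Of 9 partners, the members of SOSS and PP2A and others, NABP1, which binds single-stranded DNA in the SOSS complex with INTS3, was called higher at nuclear KCl 1h, by 1.21 from 60.9 ± 4.98 to 139 ± 9.63 CPM. PPP2CA, the catalytic subunit of PP2A, was called lower at IM 18h, by -0.68 in mRNA and -0.69 in nuclear RNA. WDR73 was called lower at IM 18h (-0.87), JTE 6h (-1.41) and KCl 3h (-0.73) in mRNA, and PPP2R1B, a scaffold subunit of PP2A, at JTE 6h (-0.61). This made 2 of 9 at IM 18h and 2 of 9 at JTE 6h in mRNA, where 30.5% and 13.2% of all genes were called, and 1 of 9 at nuclear KCl 1h, where 23.8% were. It also made 1 of 9 at nuclear IM 18h, beside 32.6% of all genes, and 1 of 9 at mRNA KCl 3h, beside 11.9%.

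Among the factors that pause polymerase, NELF and DSIF, 1 of 6 genes was called: NELFE was lower at JTE 18h by -1.26, from 85.7 ± 11.3 to 37.4 ± 4.30 CPM, where 5.39% of all genes were called. Of 7 genes of the cleavage and polyadenylation specificity factor, which holds the target of JTE-607, only CPSF4 was called, lower at JTE 6h by -0.75, where 13.2% of all genes were called. Of 7 genes of the complex that activates snRNA promoters and its partners, 3 were called at IM 18h in mRNA, beside 30.5% of all genes, and 2 in nuclear RNA, beside 32.6%. SNAPC4 and SNAPC5, subunits of that complex, were called lower at IM 18h by -1.05 and -0.94 in mRNA and by -1.25 and -1.27 in nuclear RNA. SNAPC5 also was lower at JTE 6h by -1.07 and at JTE 18h by -2.05, from 43.6 ± 0.33 to 11.02 ± 0.25 CPM. With SNAPC3 at JTE 6h and ZNF143 at JTE 18h, both lower, this made 2 of 7 at each time. Of all genes, 13.2% and 5.39% were called there. SNAPC4 was the 1 of 7 called at IM 6h, lower, beside 9.94% of all genes. SNAPC1 was called higher at nuclear KCl 1h by 0.79, the only higher call of that list, where 23.8% of all genes were called.

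The snRNAs themselves are cut by Integrator. They lack a poly(A) tail and were nearly absent from the mRNA libraries, where 1 of 17 passed the filter, and 11 of 17 passed it in nuclear RNA. Uniquely placed reads alone were kept, so that copies with near-identical sequence, the RNU1 and RNU2 genes among them, have uncertain counts. The 1 gene tested in mRNA, RNU5F-1, was called lower at KCl 3h from 0.377 to 0.0148 CPM, levels of a few reads. None of the 11 snRNA genes was called in nuclear RNA under imatinib or JTE-607. Of all genes, 0.0456% were called at IM 1h, 32.6% at IM 18h and 8.52% at JTE 1h. The absence of calls does not show that snRNA levels were stable. At nuclear KCl 1h, 4 of 11 were called, against 23.8% of all genes. RNU5E-1 was higher by 0.97 (9.82 ± 2.61 to 19.1 ± 3.55 CPM), RNU5A-1 by 0.82 (1.28 ± 0.60 to 2.26 ± 0.34 CPM) and RNU11 by 1.81 (0.25 ± 0.07 to 0.87 ± 0.24 CPM), and RNU5D-1 was lower by -1.70 (7.84 ± 2.74 to 2.37 ± 0.43 CPM). These variants of U5 thus moved in opposite directions, and whether reads fell on the mature RNA or past its end was not tested.

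The sequence at which Integrator acts, the 3′ box, lies just past the end of snRNA genes. The last 20 bases of each of these 4 genes and the 40 bases after it are shown, 5′ to 3′ on the strand of the gene, with the 3′ box in capitals where the pattern was found. The pattern searched, on the strand of the gene only, was GTTT, then 0 to 3 bases, AAA, a purine, 2 bases and AGA. RNU5E-1 lies at chr1:11908252-11908311 (plus strand), RNU5D-1 at chr1:44731015-44731074 (minus), RNU5A-1 at chr15:65296147-65296206 (plus) and RNU11 at chr1:28648714-28648773 (plus), all on hg38.
RNU5E-1: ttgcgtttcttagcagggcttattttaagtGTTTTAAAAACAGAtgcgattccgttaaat
RNU5D-1: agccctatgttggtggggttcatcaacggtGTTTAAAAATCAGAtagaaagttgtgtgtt
RNU5A-1: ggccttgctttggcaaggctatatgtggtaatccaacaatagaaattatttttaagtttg
RNU11: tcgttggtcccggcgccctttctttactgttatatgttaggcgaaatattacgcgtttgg
The pattern was found at base 11 after the gene end in both RNU5E-1, which was higher, and RNU5D-1, which was lower. It was not found in these letters for RNU5A-1 and RNU11. Of the 17 snRNA genes 7 held it, and of all 58206 gene ends searched in the same way 0.0687% held it.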

How the data were processed

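Gene counts of 27 mRNA and 15 nuclear RNA libraries were used as deposited by the authors. Per the study's methods, the authors trimmed and deduplicated reads with fastp, kept unique STAR alignments to hg38 with introns of at most 10000 bases, and counted read pairs per gene with featureCounts, for which no strand option is named. Per the labels, the library kits kept strand. INTS3, INTS4, INTS6, INTS7 and INTS9 have 1 to 4 introns above that limit. Pairs over exons of several genes were left out. The deposited exon length gave RPKM.

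Counts were fitted with edgeR 4.0.16 in R 4.3.3 (filterByExpr, TMM, robust quasi-likelihood test), with all libraries of an RNA kind in 1 fit, and an interaction fit over 12 libraries for nuclear against mRNA responses. Benjamini-Hochberg adjustment ran over all genes tested. Calls needed an adjusted p below 0.05 and a log2 fold change beyond 0.6. The procedure was tested on simulated data. Alternatives were DESeq2 1.42.0, other scalings and filters, depth thinned to 16439848 (mRNA) and 16175394 (nuclear) counts, other sample sets, a replicate block and leaving out each library. Replicate numbers paired the nuclear libraries (correlation of same-numbered deviations with CTRL from 0.23 to 0.89). For the mRNA libraries the numbering was not settled. Named genes were all members, and the called genes of the other lists. The members and the lists were chosen with earlier results of these data known. The values of 1 marker of another cell type are not reported here. No library was left out, and p-values measure the spread between cultures of 1 cell line.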

Additional observations from a re-analysis of the deposited data

Results flagged for a closer look

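INTS6 was singled out because its response to KCl at 1 h differed between the 2 kinds of RNA by a test of the difference itself. The nuclear response exceeded the mRNA response by 1.52 on the log2 scale (SE 0.21, edgeR interaction adjusted p 0.0020), with all 3 nuclear KCl libraries above all 3 nuclear CTRL libraries and 2 of 3 mRNA KCl libraries at 54.1 and 55.5 CPM beside 45.2 to 54.3 CPM in mRNA CTRL. Over the alternatives tried, the difference ran from 1.36 to 1.65.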

How the results depend on the processing

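No called member reversed its direction under any alternative. The direction of tests that were not called was not compared. The calls of INTS9, INTS10 and INTS6 against CTRL were kept under every alternative run: INTS9 ran from -1.02 to -0.71 at IM 6h, from -0.92 to -0.65 at IM 18h and from -1.28 to -1.08 in nuclear IM 18h, INTS10 from -0.92 to -0.70 and from -0.99 to -0.81 at IM 18h in mRNA and nuclear RNA, and nuclear INTS6 at KCl 1h from 1.83 to 2.01. Without the fold threshold, members called became 4 instead of 2 at IM 18h, 6 instead of 2 at nuclear IM 18h, 4 instead of 0 at JTE 6h, 3 instead of 0 at JTE 18h, 2 instead of 0 at KCl 3h, 5 instead of 1 for IM 6h against JTE 6h, 4 instead of 2 for IM 18h against JTE 18h, 1 instead of 0 for IM 18h against IM 6h, 4 instead of 0 for JTE 6h against JTE 1h and 1 instead of 0 for JTE 18h against JTE 6h. Of all genes, 23.8% were called for IM 6h against JTE 6h and 30.3% for IM 18h against JTE 18h. The shares by adjusted p alone are at least as high and are not given here, so those member counts cannot be set against them. Upper quartile normalization left 1 member called for IM 18h against JTE 18h, and a fit of only the 2 groups left 0 for mRNA KCl 1h against JTE 1h.

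Leaving out 1 library at a time gave 0 to 1 members called for IM 18h against IM 6h (INTS10), for JTE 18h (INTS1, -0.60 without JTE 18h replicate 2), for JTE 6h against JTE 1h (INTS1, -0.62 without JTE 6h replicate 2), for mRNA KCl 1h against JTE 1h and for KCl 3h (both INTS6), 1 to 2 for IM 18h against JTE 18h (INTS9), and 2 to 3 for nuclear IM 18h (INTS3, 0.67 and 0.69 without nuclear CTRL replicates 2 and 3 and 0.61 without nuclear IM 18h replicate 1). The cause was not tested. Of the 15 tests against CTRL that passed by adjusted p alone and were not called, 5 passed in every alternative (INTS1 at JTE 18h, INTS2 and INTS6 at KCl 3h, INTS3 and INTS11 at nuclear IM 18h). The other 10 did not pass in at least 1, with the highest adjusted p (edgeR) from 0.057 (INTS1 at JTE 6h) to 0.24 (INTS1 at nuclear IM 18h). The fit with a replicate block, which takes same-numbered libraries as pairs, kept the call in 240 of 240 tests. For mRNA this says little about pairing: the study's list of library totals has mRNA CTRL replicates 1 and 2 the other way round from the deposited columns, so that the block may pair the wrong controls, and a block with those 2 exchanged was not run. The correlations of same-numbered mRNA libraries with CTRL ran from -0.36 to 0.88, and all those of replicate 3 were positive. Those of replicates 1 and 2 were all negative except KCl 3h replicate 1, with 0.08. Upper quartile normalization moved the median of all genes by 0.12 at nuclear IM 18h, where it took INTS3 to 0.69. Depth did not limit the members, with at least 465 counts in every library, whereas the snRNA genes rested on few reads.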
